A study of Mus musculus with 54 samples.

Results

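Interferon regulatory factors (IRFs) and signal transducers and activators of transcription (STATs) are the transcription factors that carry interferon and cytokine signals to genes. The 9 genes described are Irf1, Irf2, Irf3, Irf5, Irf7, Irf8, Irf9, Stat2 and Stat3. They were chosen by symbol from the 16632 genes of the deposited count table, and all 9 passed the filter on low counts together with 13169 genes in all.

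In the classical pathway, IRF3, IRF5 and IRF7 are switched on by kinases downstream of nucleic acid sensors and Toll-like receptors and drive the genes of type I interferons. Secreted interferon binds its receptor, Janus kinases phosphorylate STAT2, and IRF9 and STAT2 act in ISGF3, a complex that binds interferon-stimulated response elements (ISREs). Irf7, Irf9 and Stat2 are themselves among the genes ISGF3 turns on, whereas Irf1 is a classical target of STAT dimers, which bind the gamma-activated site (GAS). IRF2 competes with IRF1 on shared sites, IRF8 is a lineage factor of microglia and other myeloid cells, and STAT3 carries signals of interleukin 6 and interleukin 10. All of these proteins are also controlled by phosphorylation and entry into the nucleus, which mRNA counts do not show.

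The cells were primary microglia, macrophages that live in brain tissue, from neonatal C57BL/6 mice. Per the labels' protocols, cells of a pair of brains were pooled in each flask, grown over astrocytes in medium with L929 cell supernatant, and shaken off. Donor cells had taken up 1 µM fluorescent alpha-synuclein (aSyn), the protein that aggregates in Parkinson's disease, for 14 h, and acceptor cells carried a violet dye and were given no aSyn directly. Donors and acceptors were co-cultured and sorted apart by flow cytometry after 15, 30, 60, 150 or 300 min, and a further pair of groups is labelled 0 min, a time the protocols do not describe. The other groups were untreated cells and cells given aSyn without acceptors (aSyn-only cells), and the sources used here do not say whether those were sorted. The labels name no genetic change in any group. Titles carry a replicate number, which is called the experiment here. There were 4 experiments, with 54 libraries that gave 52 samples, because 2 pairs of untreated libraries with the same number (2 and 4) were each summed. Each group had 4 samples except donors and acceptors at 0 min (3 each, no experiment 4), donors at 60 min (3, no experiment 2) and acceptors at 300 min (3, no experiment 3). Passage differed between experiments: passage 3 in experiment 1, passage 1 in experiment 2, and passage 2 in experiments 3 and 4. The labels do not say that the experiments used separate litters, so p-values measure the spread between these samples.

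Library totals were between 7807389 and 15537493 counts, and Irf7 held between 436 and 27201 counts in a sample. Levels are in counts per 1000000 (CPM) from libraries that sample the 3′ end of transcripts. All 8 microglia markers looked for were in the table, but 2 defining ones were low: Tmem119 was between 0.93 and 13.1 CPM and P2ry12 between 1.48 and 12.3 CPM. The summed microglia markers lay between 1931 and 3780 CPM in experiment 4 and between 4467 and 8076 CPM in the other experiments. Summed astrocyte markers (7 of 7 in the table) were between 10.4 and 135 CPM in untreated cells, between 11.2 and 28.9 CPM in aSyn-only cells and between 7.59 and 41.7 CPM in the co-cultured groups. Summed oligodendrocyte lineage markers (6 of 6) were between 115 and 566 CPM in untreated cells, between 78.3 and 238.9 CPM in aSyn-only cells and between 64.2 and 265.2 CPM in the co-cultured groups. The part of these cell type differences in the results below was not tested. In bulk samples, fewer cells of a type and less RNA per cell cannot be told apart.

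Promoter sequences were taken from RefSeq for the build GRCm38.p6, and all 9 genes matched, with 12 promoters in all. The windows below are shown because they hold matches to motifs that these factors are known to bind, in the promoters of the factors themselves; a match is a description, not a site in use. The 250 bases upstream of each start were searched on both strands for the GAS motif TTCNNNGAA, present in 7.02% of 32851 promoters of that length, and for the ISRE core, GAAA and again GAAA with any 2 bases between them, present in 2.98%. No match overlapped a match of the other motif, and capitals mark the matches.
Irf1, chr11:53769904-53769952, + strand, GAS: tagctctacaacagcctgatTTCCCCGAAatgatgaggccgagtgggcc
Irf2, chr8:46739495-46739549, + strand, ISRE then GAS: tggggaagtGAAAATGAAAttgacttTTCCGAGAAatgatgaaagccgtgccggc
Irf8, chr8:120736167-120736233, + strand, GAS in 2 places: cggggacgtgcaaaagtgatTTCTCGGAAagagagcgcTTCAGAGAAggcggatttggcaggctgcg
Stat2, chr10:128270256-128270305, + strand, ISRE read from the other strand: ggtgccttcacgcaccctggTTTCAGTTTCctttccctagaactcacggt
The site in Irf1 began 90 bases upstream of the start, the sites in Irf8 171 and 153 bases upstream, and the site in Stat2 222 bases upstream. In Irf2 the GAS began 224 bases upstream, just after the ISRE. The promoters of Irf3, Irf5, Irf7, Irf9 and Stat3 held neither string in this window, which says nothing of binding there.

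Across all 19 pairwise comparisons and 3 joint tests over time, none of the 9 genes passed the test in the fit without the experiment as a term (0 of 198 gene-by-comparison tests, edgeR quasi-likelihood test, lowest adjusted p = 0.258; 9 had an unadjusted p under 0.05, and DESeq2 called 0 as well). Experiment numbers are shared by all groups and same-numbered samples deviated together, so each comparison was also fitted with the experiment as a block. With the block, 8 tests passed an adjusted p of 0.05 and 40 had an unadjusted p under 0.05. These 8 concerned Irf5, Irf3 and Stat2. The share of calls lay near that of all genes over the same 22 comparisons: 4.04% of member tests and 3.38% of all tests were called with the block, and 20.2% and 14.1% had an unadjusted p under 0.05. Without the block 0.249% of all tests were called, and 4.55% of member tests and 5.8% of all tests had an unadjusted p under 0.05.

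Irf7, the master regulator of type I interferon genes, had the widest range of the 9 genes. In untreated cells it was at 98.3, 1186, 139 and 34.3 CPM in experiments 1 to 4, and in aSyn-only cells at 185, 731, 276 and 725 CPM. Untreated cells of experiment 2 thus stood far above all others, while aSyn-only cells were the higher of the pair in experiments 1, 3 and 4. The within-experiment ratio of aSyn-only to untreated cells was 1.89 in experiment 1, 0.616 in experiment 2, 1.99 in experiment 3 and 21.1 in experiment 4. The groups overlapped, and the fitted difference did not pass the test (log2 fold change 0.39, SE 0.92, adjusted p = 0.872). With the block it was 1.10 (SE 0.56, adjusted p = 0.164). Leaving out experiment 2 from the blocked fit gave 1.99 (SE 0.66, adjusted p = 0.0429), and leaving out experiment 4 gave 0.28 (adjusted p = 0.589). With 1 experiment left out, the blocked fit called 10.5% to 16% of all genes in this comparison. Both libraries behind the untreated sample of experiment 2 were high when kept apart, at 1204 and 1149 CPM.

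Once aSyn had been given, Irf7 lay at a level that differed between experiments more than between groups. Over aSyn-only cells and all donor groups it was between 185.3 and 228.8 CPM in experiment 1, between 657 and 829 CPM in experiment 2, between 231.4 and 281.0 CPM in experiment 3 and between 594 and 725 CPM in experiment 4. Donors differed from the aSyn-only cells of their experiment by -0.29 to 0.30 on the log2 scale in 22 pairs, whatever the time in co-culture. Samples not given aSyn directly (untreated cells and acceptors) were between 70.1 and 134 CPM in experiment 1, between 561 and 1186 CPM in experiment 2, between 62.7 and 212 CPM in experiment 3 and between 34.3 and 104 CPM in experiment 4. The 2 kinds of sample did not overlap in experiments 1, 3 and 4 and overlapped in experiment 2. The share of all genes without overlap in the same split was not counted, so this does not set Irf7 apart.

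Donors held more Irf7 than the acceptors sorted from the same experiment and time in all 21 pairs, with log2 differences from 0.08 to 3.87 and a median of 0.77. Over all genes tested, 310 (2.35%) were higher in donors in every pair and 302 (2.29%) lower in every pair. The size of the Irf7 difference followed the experiment: donors had 6.92 to 14.7 times the acceptor CPM in experiment 4, 1.62 to 2.74 times in experiment 1, 1.24 to 4.34 times in experiment 3 and only 1.05 to 1.31 times in experiment 2. The ratio of 4.34 belonged to 0 min in experiment 3, where acceptors were at 62.7 CPM and at later times between 162 and 212 CPM. The difference passed the test at no time, neither without the block (log2 fold changes 0.51 to 0.95, adjusted p = 0.735 to 0.978) nor with it (1.13 to 1.39, adjusted p = 0.1 to 0.321). At 0 min, where experiment 4 has no sample, the blocked fit run without experiment 4 gave 1.15 (SE 0.29, adjusted p = 0.00823). Blocked fits with 1 experiment left out called 1.18% to 11% of all genes at 0 min. In experiment 4 the summed microglia markers were between 1931 and 2219 CPM in samples given aSyn and between 3169 and 3780 CPM in the others. The summed border macrophage markers (3 of 3 in the table, nearly all of it Mrc1, since Lyve1 and Cd163 were at most 0.56 CPM) were between 8.96 and 10.2 CPM in samples given aSyn in experiment 4 and between 104 and 164 CPM in its other samples. In experiment 1 they were between 184.4 and 245.7 CPM and between 173.9 and 233.1 CPM, in experiment 2 between 64.4 and 105 CPM and between 94.7 and 139 CPM, and in experiment 3 between 82.8 and 106 CPM and between 136 and 162 CPM. The part of these markers in the result was not tested.

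**Figure D1:**
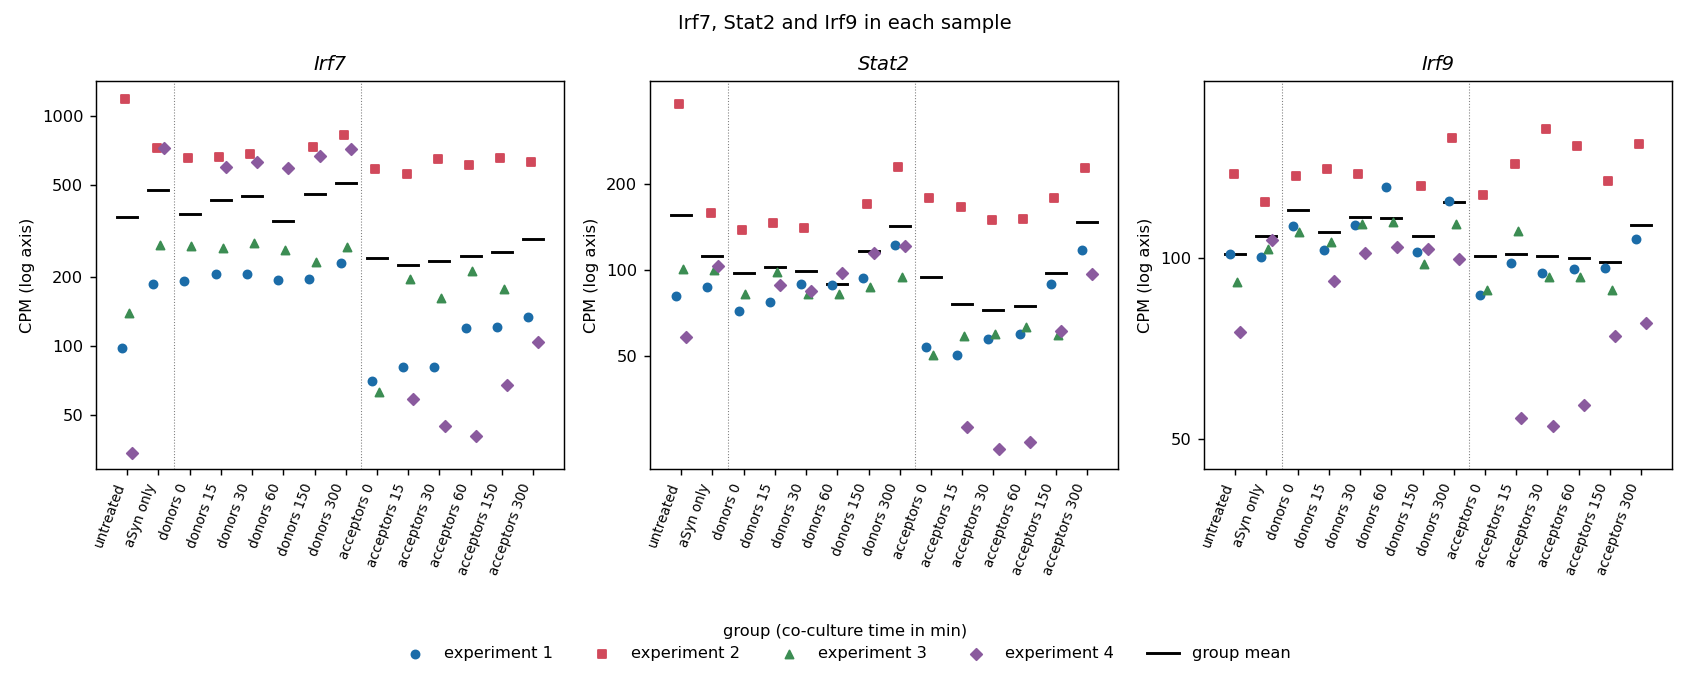
CPM (log axis) of Irf7, Stat2 and Irf9 in each of the 52 samples by group, with a symbol for each experiment and a bar for the group mean. Irf7 of experiment 4 was between 594 and 725 CPM in samples given aSyn and between 34.3 and 104 CPM in the others, whereas in experiment 2 both kinds of sample were high.

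Stat2, the STAT found only in type I and type III interferon signalling, followed Irf7 in untreated cells. It was at 81.3, 385, 101 and 58.2 CPM in untreated cells of experiments 1 to 4 and at 87.0, 159, 100.1 and 103 CPM in aSyn-only cells. The untreated sample of experiment 2 was again apart from the other 3. The fitted log2 difference between aSyn-only and untreated cells was -0.48 (SE 0.54, adjusted p = 0.699) and turned to 0.30 without experiment 2, so its direction rested on that sample.

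Stat2 had its lowest group means in acceptors at 15, 30 and 60 min. At 30 min acceptors were at 57.0, 150, 59.5 and 23.6 CPM in experiments 1 to 4, each below the untreated sample of its experiment. At 15 min they were at 50.1, 166, 58.7 and 28.01 CPM, and at 60 min at 59.6, 152, 63.2 and 24.8 CPM. By 300 min they were at 117, 228.7 and 96.9 CPM in experiments 1, 2 and 4, close to donors of the same experiments at that time (123, 230.04 and 122 CPM). With the block, Stat2 was called lower in acceptors than in untreated cells at 15 min (log2 fold change -0.96, SE 0.27, adjusted p = 0.041), 30 min (-0.99, SE 0.27, adjusted p = 0.028) and 60 min (-0.93, SE 0.27, adjusted p = 0.035). At those times the block called 2.25%, 3.6% and 4% of all genes (1.18%, 2.04% and 2.07% lower), and without the block Stat2 had adjusted p = 0.812, 0.669 and 0.668 where 0%, 0.114% and 0.0683% of genes were called. These 6 acceptor comparisons share the untreated samples, including the high sample of experiment 2. Leaving out experiment 2 from the blocked fit gave -0.81, -0.78 and -0.71 at 15, 30 and 60 min, and adjusted p = 0.127, 0.126 and 0.155. Leaving out experiment 1 or experiment 3 also ended the 3 calls (adjusted p from 0.134 to 0.2), and leaving out experiment 4 kept them (-0.96, -0.95 and -0.90, adjusted p from 0.00938 to 0.0181). At 0 min, where acceptors were at 53.9, 179 and 50.2 CPM in experiments 1 to 3, Stat2 was called without experiment 4 (-0.94, SE 0.22, adjusted p = 0.0128) and not with it (-0.79, adjusted p = 0.182). Blocked fits with 1 experiment left out called 0% to 2.86% of all genes at 0 min. They called 0.349% to 1.91% at 15 min, 0.182% to 4.53% at 30 min and 0.858% to 2.97% at 60 min.

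Donors had more Stat2 than same-numbered acceptors in 17 of 21 pairs. Experiment 2 was the exception, with 1 of 5 pairs higher, and in experiment 4 donors had 1.26 to 3.93 times the acceptor CPM. Of all genes, 20.6% had at least 18 of the 21 pairs on 1 side, so a count of 17 does not set Stat2 apart. The blocked differences were 0.68, 0.66 and 0.81 at 15, 30 and 60 min (adjusted p = 0.0932, 0.101 and 0.0739) and 0.07 at 300 min (adjusted p = 0.942). Without experiment 2 the blocked difference was called at 15 min (1.00, SE 0.27, adjusted p = 0.0313) and at 30 min (0.93, SE 0.27, adjusted p = 0.0395). Over the blocked leave-outs, 4.43% to 6.61% of all genes were called at 15 min and 5.47% to 8.52% at 30 min.

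Irf9, the DNA-binding subunit of ISGF3, covered a smaller range. Untreated cells were at 102, 138, 91.3 and 75.6 CPM in experiments 1 to 4 and aSyn-only cells at 100.4, 124, 104 and 107 CPM, which overlap. The fitted difference was 0.10 (SE 0.27, adjusted p = 0.896). In experiment 4 samples given aSyn were between 91.8 and 107 CPM and the others between 52.6 and 78.1 CPM, while in experiment 2 acceptors reached 164 CPM, the highest value of the gene. Donors were higher than acceptors in 17 of 21 pairs, a count below the 18 that 20.6% of all genes reached on 1 side. The largest blocked difference, at 60 min, was 0.44 (SE 0.15, adjusted p = 0.0591). Without experiment 2 the blocked difference was called at 30 min (0.51, SE 0.15, adjusted p = 0.0486) and at 60 min (0.54, SE 0.15, adjusted p = 0.044). Over the blocked leave-outs, 5.47% to 8.52% of all genes were called at 30 min and 2.52% to 4.47% at 60 min.

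The shared pattern of these 3 genes shows in the correlation of log2 CPM over the 52 samples after each experiment's mean was removed. It was 0.82 for Irf7 with Irf9, 0.76 for Irf9 with Stat2 and 0.75 for Irf7 with Stat2. The 3 genes most like Irf7 by this measure, among 9126 genes with a mean of at least 5 CPM, were Gbp3, Zbp1 and Isg15 (0.98 each), all interferon-stimulated. Those most like Stat2 were Trim30d (0.95), Slfn8 (0.94) and Gm12250 (0.93), and those most like Irf9 were Oas1g (0.89), Milr1 (0.88) and Oasl2 (0.87). The samples share experiment, library and depth, and the correlations are given as a description.

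Irf5, which acts downstream of Toll-like receptors in inflammatory gene expression, was higher in aSyn-only than in untreated cells in 4 of 4 experiments. It was at 168, 303, 179 and 162 CPM in untreated cells and at 252.1, 324.4, 249.1 and 213.4 CPM in aSyn-only cells of experiments 1 to 4. The groups overlapped only because the untreated sample of experiment 2 was high, and the within-experiment ratios were 1.501, 1.07, 1.39 and 1.31. The log2 fold change was 0.35 (SE 0.17, adjusted p = 0.258) without the block, where 0 of the 9 members and 2.5% of all genes were called. With the block it was 0.38 (SE 0.098, adjusted p = 0.00567), which made Irf5 the 1 of 9 members called where 19.2% of all genes were called and 8.95% were called higher. Leaving out experiment 2 gave 0.52 in both fits (adjusted p = 0.0228 without and 0.00119 with the block). Those fits called 219 and 1877 genes, against 329 and 2524 with all experiments. Leaving out experiment 1 or experiment 3 from the blocked fit ended the call (0.33 and 0.35, adjusted p = 0.0825 and 0.0562).

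Donors held more Irf5 than same-numbered acceptors in 19 of 21 pairs, by 0.32 on the log2 scale at the median. The 21 pairs are repeated times of 4 experiments. Of all genes, 20.6% had at least 18 pairs on 1 side, so the count alone does not set Irf5 apart. At 30 min donors were at 245.5, 325.7, 260.4 and 228.8 CPM and acceptors at 187.7, 231.1, 197.9 and 186.0 CPM in experiments 1 to 4, with 1 acceptor sample above 1 donor sample. At 150 min donors were at 282.5, 357.1, 280.2 and 251.3 CPM and acceptors at 196.7, 248.1, 219.1 and 221.3 CPM. The blocked fit called Irf5 higher in donors at 30 min (0.39, SE 0.098, adjusted p = 0.00717) and at 150 min (0.40, SE 0.098, adjusted p = 0.012), where 10.8% and 5.19% of all genes were called (5.5% and 2.95% higher). Without the block it had adjusted p = 0.304 and 0.454, where 0.805% and 0.167% were called. The call at 30 min held with each experiment left out of the blocked fit (adjusted p from 0.0106 to 0.0496), and the call at 150 min held only without experiment 4 (adjusted p = 0.00978, and from 0.0507 to 0.118 without the others). At 300 min donors were at 194, 273, 208 and 214 CPM against 198, 219 and 213 CPM in acceptors of experiments 1, 2 and 4, and the blocked difference was 0.08 (adjusted p = 0.795).

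Irf3, the constitutive partner of IRF7 that is activated by phosphorylation, was at 39.6, 44.2, 45.2 and 29.8 CPM in untreated cells and 41.2, 49.3, 41.0 and 35.2 CPM in aSyn-only cells of experiments 1 to 4. The difference was 0.07 (SE 0.19, adjusted p = 0.889). Donors were higher than acceptors in 17 of 21 pairs, which does not set Irf3 apart, since 20.6% of all genes had at least 18 on 1 side. At 30 min donors were at 44.9, 48.9, 39.3 and 38.4 CPM and acceptors at 39.6, 36.6, 28.7 and 22.7 CPM, and donors were higher in each of the 4 experiments although the groups overlapped. The blocked fit called Irf3 higher in donors at 30 min (0.45, SE 0.10, adjusted p = 0.00364) and at 60 min (0.37, SE 0.11, adjusted p = 0.0371), where 10.8% and 6.7% of all genes were called (5.5% and 3.62% higher). Without the block it had adjusted p = 0.36 and 0.725, where 0.805% and 0.418% were called. The call at 30 min held with each experiment left out of the blocked fit (0.35 to 0.56), and the call at 60 min was lost without experiment 1, 2 or 4 (adjusted p = 0.216, 0.0787 and 0.156). At 0 min the blocked difference was -0.01 (SE 0.12, adjusted p = 0.989). Against untreated cells, acceptors at 30 min had a blocked difference in Irf3 of -0.32 (adjusted p = 0.0656).

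**Figure D2:**
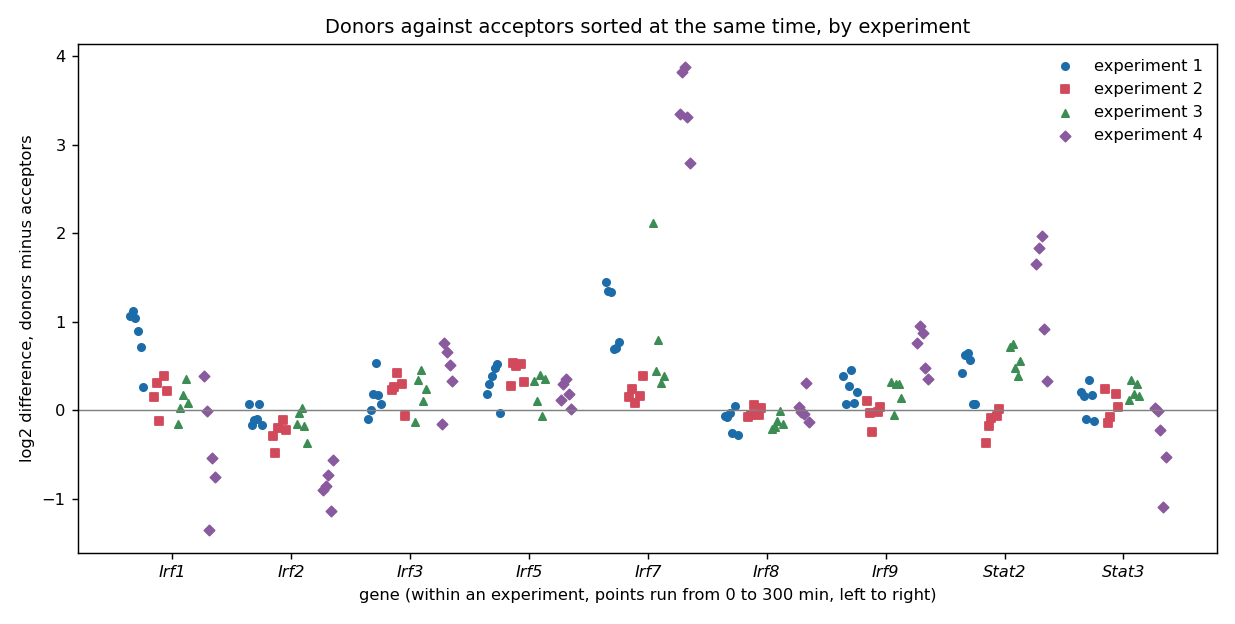
Log2 difference between donors and the acceptors of the same experiment and time, for each of the 21 pairs, by gene, with points of an experiment running from 0 to 300 min. Irf7 was above 0 in all 21 pairs with a separate level for experiment 4, Irf5 and Irf3 lay mostly between 0 and 0.75, and Irf2 was below 0 in 18 pairs.

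Irf2, the antagonist of IRF1, was lower in aSyn-only cells and in donors in most pairs. It was at 88.9, 111, 76.4 and 112 CPM in untreated cells and at 87.9, 69.2, 59.2 and 67.0 CPM in aSyn-only cells, lower in 4 of 4 experiments but with nearly no difference in experiment 1. The log2 fold change was -0.46 (SE 0.24, adjusted p = 0.315) without and -0.44 (adjusted p = 0.0517) with the block. Leaving out experiment 1 from the blocked fit gave -0.57 (adjusted p = 0.0378), where 16% of all genes were called. That fit drops the experiment with nearly no difference and was added after seeing the data. With all experiments Irf2 was not called. Acceptors had more Irf2 than same-numbered donors in 18 of 21 pairs, most of all in experiment 4, where donors had 0.453 to 0.676 times the acceptor CPM. Its correlation with Irf7 within experiments was -0.60, and the genes most like it were Tcf4 (0.87), Abca9 (0.86) and Tacc1 (0.86). At 20.6%, the share of all genes with at least 18 of 21 pairs on 1 side was large, so this count does not set Irf2 apart.

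Irf1, an early gene of interferon gamma signalling, had its highest value, 278 CPM, in the untreated sample of experiment 2. Untreated cells were at 101, 278, 129 and 71.9 CPM and aSyn-only cells at 132, 118, 79.4 and 73.4 CPM in experiments 1 to 4, and the difference was -0.53 (SE 0.33, adjusted p = 0.43) with 2 experiments on each side. Acceptors were below the untreated sample of their experiment in 18 of 22 pairs. The pairs of an experiment share 1 untreated sample, and the share of all genes with such a count was not taken. The lowest group was acceptors at 15 min (56.5, 98.3, 98.5 and 56.5 CPM, log2 fold change -0.91, SE 0.33, adjusted p = 0.553 against untreated cells). Without experiment 4 the blocked fit called Irf1 lower in acceptors at 15, 30 and 150 min (-0.94, -0.81 and -1.02, adjusted p = 0.0338, 0.0431 and 0.0154). The blocked leave-outs called 0.349% to 1.91%, 0.182% to 4.53% and 1.81% to 3.17% of all genes at those times. In experiment 4 acceptors were above its untreated cells (71.9 CPM) at 3 of 5 times, with 170 CPM at 60 min, 97.8 CPM at 150 min and 117 CPM at 300 min. With all experiments the blocked differences at 15, 30 and 150 min were -0.82, -0.67 and -0.65 (adjusted p = 0.0926, 0.157 and 0.158). Donors against acceptors differed by experiment: donors were higher in 6 of 6 pairs of experiment 1 and in 1 of 5 pairs of experiment 4.

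Irf8 was the most even of the 9 genes, with 1.89-fold between its lowest sample (222 CPM) and its highest (418 CPM, untreated cells of experiment 4). Untreated cells were at 292, 355, 275 and 418 CPM and aSyn-only cells at 299.1, 306.8, 249.1 and 318.3 CPM, and the difference was -0.19 (SE 0.14, adjusted p = 0.524). Donors were lower than acceptors in 16 of 21 pairs, by 0.06 on the log2 scale at the median. Of all genes, 20.6% had at least 18 of the 21 pairs on 1 side, so this count does not set Irf8 apart. The genes most like Irf8 had weak correlations (Nes 0.55, Taok3 0.51, Cnot3 0.51).

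Stat3 lay between 126.3 and 233.97 CPM in 50 of the 52 samples. The exceptions were acceptors of experiment 4 at 150 min (448 CPM) and 300 min (309 CPM), while acceptors of the other experiments were between 142 and 171 CPM at those times. Untreated cells were at 157, 199, 126 and 157 CPM and aSyn-only cells at 148, 156, 160.1 and 209 CPM, and the difference was 0.07 (SE 0.22, adjusted p = 0.909). Donors were above the aSyn-only sample of their experiment in 19 of 22 pairs, by 0.11 on the log2 scale at the median, and no time passed the test. By experiment this was 6 of 6, 5 of 5, 6 of 6 and 2 of 5 pairs in experiments 1 to 4. The pairs of an experiment share 1 aSyn-only sample. The share of all genes with such a count was not taken, so the count does not set Stat3 apart. The genes most like Stat3 were Picalm (0.71), Fam110a (0.70) and Relb (0.70).

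**Figure D3:**
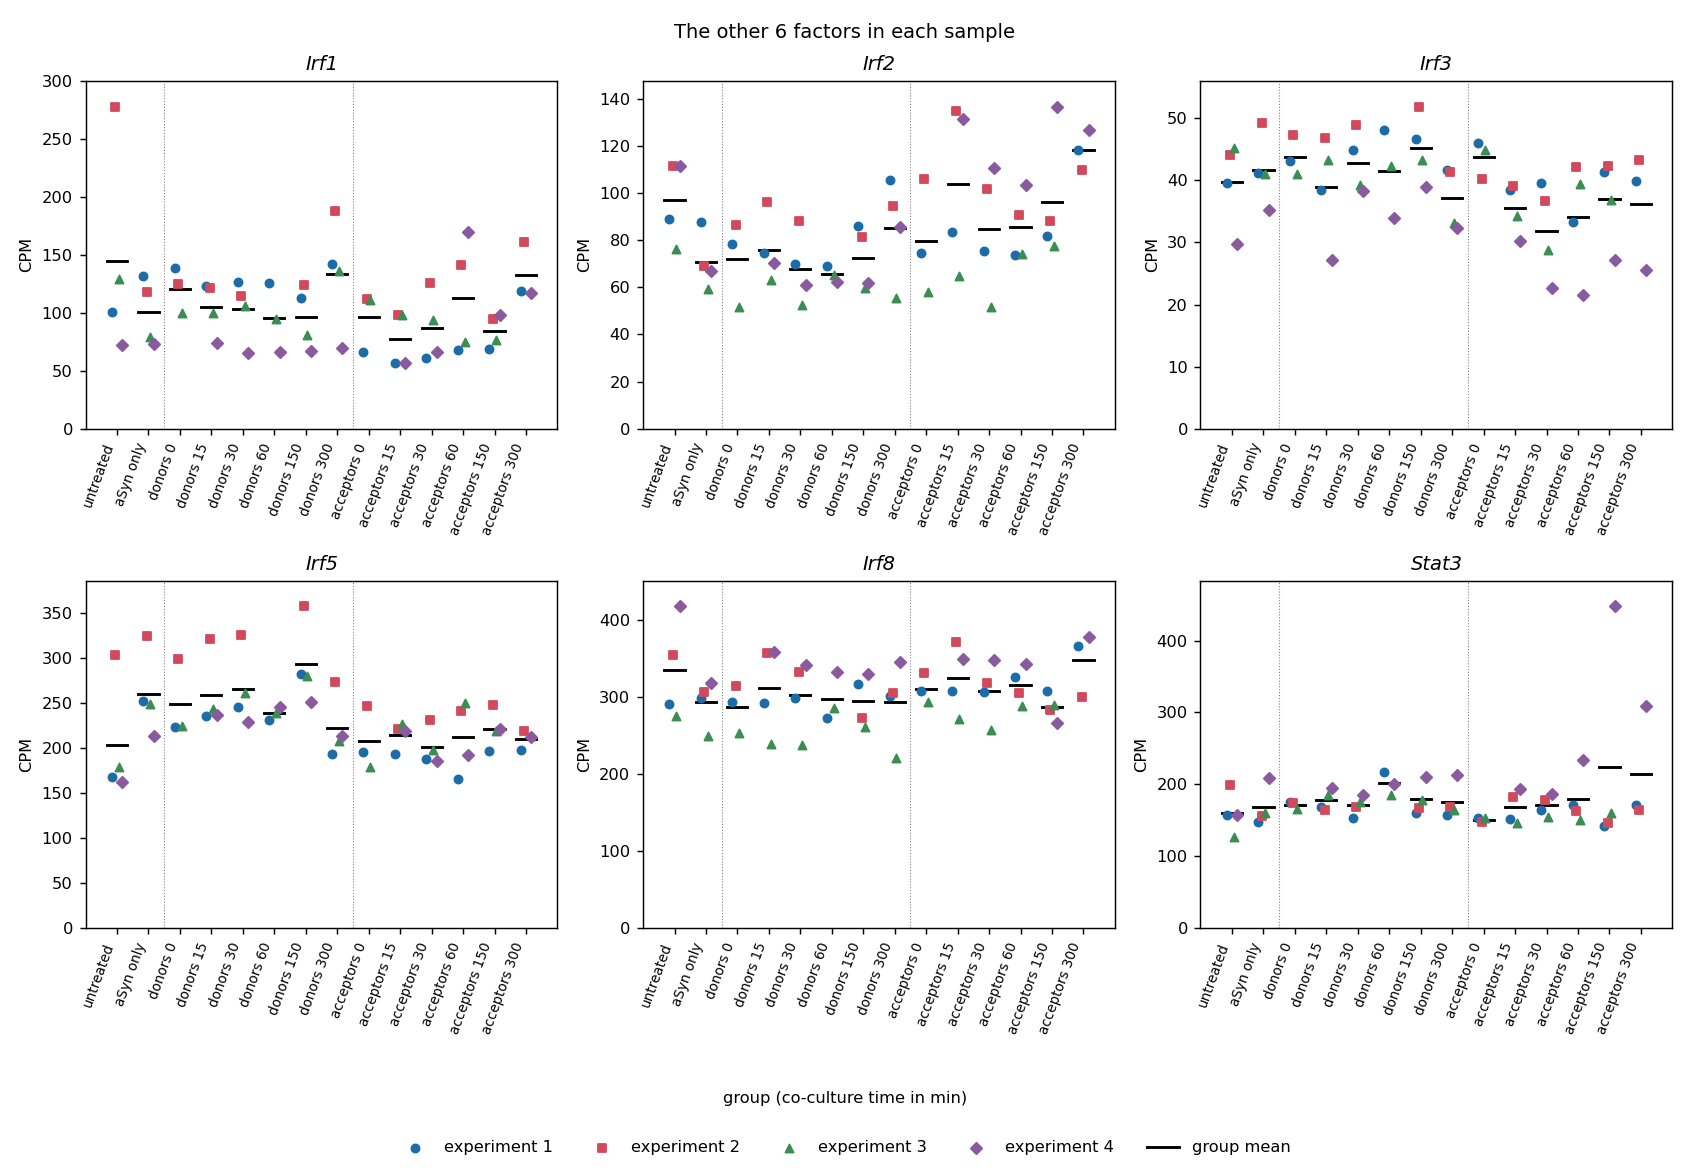
CPM of Irf1, Irf2, Irf3, Irf5, Irf8 and Stat3 in each of the 52 samples by group, with a symbol for each experiment and a bar for the group mean. Irf8 stayed between 222 and 418 CPM, Stat3 of experiment 4 stood apart in acceptors at 150 min (448 CPM) and 300 min (309 CPM), and Irf5 was highest in donors at 150 min.

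Experiments accounted for more of the variance of log2 CPM than groups did in 8 of the 9 genes. The share of the experiment was between 30.3% (Irf1) and 62.9% (Irf9), and that of the group between 13.4% (Irf9) and 43.8% (Irf5). Irf5 was the exception by raw share, with 36.1% for the experiment. The shares were not adjusted for the numbers of experiments and groups, and 14 groups take up more variance by chance than 4 experiments. The raw shares therefore cannot show that the group outweighed the experiment for Irf5. How much of the group's share chance alone would give was not computed. Over all genes tested, the medians were 33.9% for the experiment and 24.95% for the group. When the 14 group means of a gene were put in order, no neighbours were further apart than the larger of their SDs for any of the 9 genes. Neighbours among 14 sorted means lie close by construction, and the SDs hold the spread between experiments. The order therefore cannot show whether groups differ. The ends of the order were acceptors at 15 min (224.1 ± 232.3 CPM, SD, n = 4) and donors at 300 min (512 ± 307 CPM, SD, n = 4) for Irf7, acceptors at 30 min (201 ± 21.0 CPM, SD, n = 4) and donors at 150 min (293 ± 45.1 CPM, SD, n = 4) for Irf5, and acceptors at 30 min (31.9 ± 7.67 CPM, SD, n = 4) and donors at 150 min (45.2 ± 5.47 CPM, SD, n = 4) for Irf3. They were acceptors at 30 min (72.4 ± 54.0 CPM, SD, n = 4) and untreated cells (156 ± 153 CPM, SD, n = 4) for Stat2, and acceptors at 150 min (98.5 ± 25.7 CPM, SD, n = 4) and donors at 300 min (124 ± 25.0 CPM, SD, n = 4) for Irf9. For Irf2 they were donors at 60 min (65.5 ± 3.23 CPM, SD, n = 3) and acceptors at 300 min (118 ± 8.49 CPM, SD, n = 3). Those donors lack experiment 2 and those acceptors experiment 3, so the means rest on different experiments. The ends were acceptors at 15 min and untreated cells for Irf1, acceptors at 150 and 300 min for Irf8, and acceptors at 0 and 150 min for Stat3. The Stat3 mean at 150 min includes the 448 CPM of experiment 4, which acceptors at 0 min lack.

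**Figure D4:**
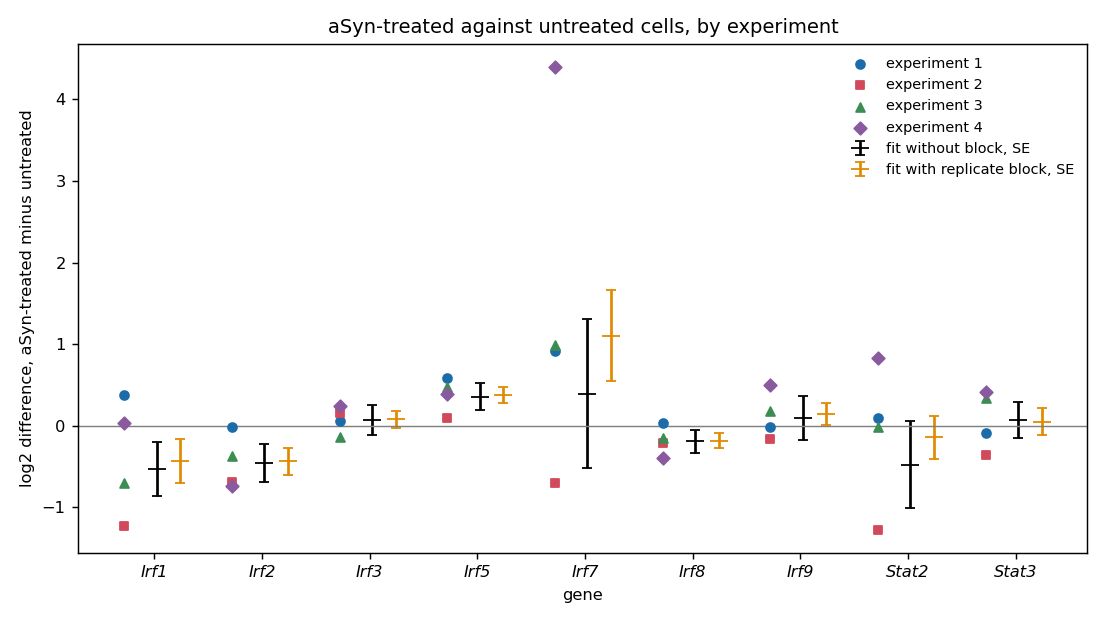
Log2 difference between aSyn-only and untreated cells of the same experiment for each gene (symbols), with the fitted log2 fold change and its SE without and with the replicate block. Irf5 was above 0 and Irf2 below 0 in all 4 experiments, and Irf7 ran from -0.70 in experiment 2 to 4.39 in experiment 4.

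Time in co-culture left no call. In the joint tests over 0 to 300 min, adjusted p was 1 for all 9 genes in donors, in acceptors and for the difference between them, where 0.0607%, 0.00759% and 0% of all genes were called. None had an unadjusted p under 0.05 (edgeR), and DESeq2 called 0. With the block, where 0.577%, 0.137% and 0.0456% of genes were called, the smallest adjusted p were 0.323 for Stat2 in acceptors and 0.335 for Irf5 in donors. Donors against aSyn-only cells gave 0 of 9 members at each of the 6 times in both fits, where 0% of all genes were called at 0 to 150 min and 0.0304% at 300 min (0.304% with the block). In these comparisons, which share the aSyn-only samples, no member had an unadjusted p under 0.05 without the block and DESeq2 called 0. Acceptors against untreated cells gave 0 of 9 at 0, 150 and 300 min in both fits, where 0%, 0.137% and 0% of genes were called without the block and 0.995%, 4.78% and 0.623% with it. Donors against acceptors gave 0 of 9 at 0, 15 and 300 min in both fits, where 0.251%, 0.888% and 0.0304% were called without the block and 4.28%, 9.57% and 1.38% with it.

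The targets of ISGF3 were followed as a list of 24 interferon-stimulated genes, such as Isg15, Ifit1 and Mx1. Their summed level was between 6185 and 7013 CPM in samples given aSyn and between 3461 and 5318 CPM in the others in experiment 1, and between 7411 and 9431 CPM against 1597 to 4642 CPM in experiment 4. In experiment 3 it was between 6522 and 7932 CPM against 3439 to 6796 CPM, and in experiment 2 between 7991 and 10670 CPM against 7732 to 17875 CPM. The last value is that of the untreated sample. The 2 kinds of sample did not overlap in experiments 1 and 4 and overlapped in experiments 2 and 3. How often other genes separated in this way was not counted.

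**Figure D5:**
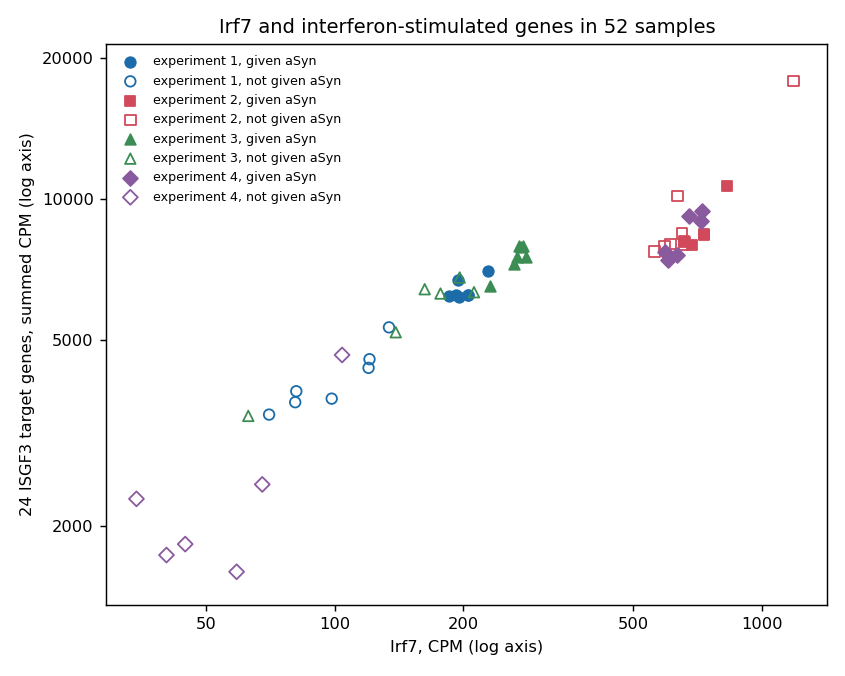
Summed CPM of the 24 ISGF3 target genes against Irf7 CPM in the 52 samples (both axes log), with filled symbols for samples given aSyn (aSyn-only and donors) and open symbols for the others (untreated and acceptors). Acceptors and untreated cells of experiment 4 were at the lower left (1597 to 4642 CPM summed) and the untreated sample of experiment 2 at the upper right (17875 CPM).

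Against untreated cells, aSyn-only cells had 0 of 24 ISGF3 targets called in both fits, and the median log2 fold change was 0.05 without and 0.39 with the block, beside -0.04 and -0.05 over all genes. In the fit without the block 0 had an unadjusted p under 0.05. The smallest p belonged to Bst2, a membrane tether of virus particles (1.04, SE 0.59, adjusted p = 0.373), Ifit3 (-1.16, SE 0.77, adjusted p = 0.456) and Parp14 (0.41, SE 0.32, adjusted p = 0.555). Between donors and acceptors, 24 of 24 had a positive difference at 0, 15, 30 and 150 min without the block, with medians from 0.48 to 0.86. At 60 min 23 and at 300 min 22 were positive (medians 0.62 and 0.38), and 0 were called at any time. Over all genes tested, the median lay between -0.0332 at 15 min and 0.00362 at 300 min. The share of all genes with a positive difference was not counted. The 24 genes come from the same samples, so they are not 24 separate results. At 30 min the summed list was 6233, 7991, 7514 and 7590 CPM in donors of experiments 1 to 4. In the acceptors it was 3883, 8436, 6416 and 1830 CPM, with donors lower in experiment 2 and the widest gap in experiment 4. With the block 0, 2, 7, 4, 0 and 0 of 24 were called at 0 to 300 min, all higher, where 4.28%, 9.57%, 10.8%, 6.7%, 5.19% and 1.38% of all genes were called. Those with the smallest p at 30 min were Parp14 (0.98, SE 0.25, adjusted p = 0.00916), Cmpk2, which makes nucleotides for the antiviral enzyme viperin (1.67, SE 0.45, adjusted p = 0.0135), and Rsad2, which encodes viperin (1.87, SE 0.52, adjusted p = 0.0159). Against untreated cells, acceptors at 30 min had a median of -1.04 over the list, and with the block 2 of 24 were called lower, Trim30a (-1.09, SE 0.24, adjusted p = 0.00764) and Ifit2 (-1.68, SE 0.46, adjusted p = 0.0313). There the block called 3.6% of all genes (2.04% lower), and the median over all genes was -0.03 without and -0.04 with the block. The summed list in untreated cells was 3744, 17875, 5191 and 2286 CPM in experiments 1 to 4. In acceptors at 30 min it was 3883, 8436, 6416 and 1830 CPM, so acceptors were lower in experiments 2 and 4 only.

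Of the 14 tested targets of IRF1 and interferon gamma, 0 were called between aSyn-only and untreated cells, with a median of 0.37. The guanylate-binding proteins Gbp2 (1.62, SE 0.75, adjusted p = 0.255), Gbp3 (1.57, SE 0.80, adjusted p = 0.306) and Gbp5 (2.06, SE 1.07, adjusted p = 0.321) had the smallest p. With the block 1 of 14 was called higher, Tapbp, which loads peptides on MHC class I (0.68, SE 0.24, adjusted p = 0.0416), where 19.2% of all genes were called. Donors at 30 min were above acceptors for 14 of 14 with a median of 0.74. The share of all genes above was not counted, and these genes come from the same samples. The summed list was 9768, 13386, 12837 and 12224 CPM in donors of experiments 1 to 4. In the acceptors it was 7435, 12569, 11571 and 5698 CPM, with the widest gap in experiment 4. With the block Psmb9, a subunit of the immunoproteasome, was the 1 of 14 called (0.63, SE 0.21, adjusted p = 0.0397), where 10.8% of all genes were called.

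Among targets of STAT3, 2 of 11 tested were called between aSyn-only and untreated cells, both higher, with a median of 1.41: Il4ra, a receptor chain for interleukin 4 (1.66, SE 0.35, adjusted p = 0.00462), and Il1rn, the interleukin 1 receptor antagonist (3.57, SE 0.92, adjusted p = 0.0256). The third by p was Cebpb, a transcription factor of myeloid cells (1.26, SE 0.43, adjusted p = 0.113). In that comparison 2.5% of all genes were called without the block and 19.2% with it. The summed level of the 11 targets was 1828, 1982, 2041 and 5427 CPM in aSyn-only cells of experiments 1 to 4. In untreated cells it was 913, 1978, 1208 and 838 CPM, so experiment 2 showed nearly no difference. With the block 7 of 11 were called, all higher, led by Lcn2, an iron-binding secreted protein (8.15, SE 0.79, adjusted p = 1.56e-09), and Socs3, the feedback inhibitor of STAT3 signalling (2.99, SE 0.49, adjusted p = 3.42e-05). Several of these genes are also known targets of NF-kappa-B. Il4ra was higher in donors than in acceptors at 30 min in both fits (1.45, SE 0.35, adjusted p = 0.03 without the block), the 1 of 11 called without it, where 0.805% of all genes were called.

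Upstream of the factors, 12 ligands and sensors were tested and 1 was called between aSyn-only and untreated cells. This was Cgas, the sensor of cytosolic DNA, which was lower (-0.89, SE 0.25, adjusted p = 0.0468), where 2.5% of all genes were called. Il6, a ligand that acts through STAT3, had 6.04 (SE 2.87, adjusted p = 0.268) without the block and was called with it (6.72, SE 1.09, adjusted p = 2.66e-05), when 2 of the 12 passed, 1 higher and 1 lower. Ifnb1, the gene of interferon beta, had group means between 0.0317 and 0.714 CPM, so its differences could not be judged at this depth. No receptor of 8 was called without the block. With it 3 were: Ifngr2 (0.54, SE 0.11, adjusted p = 8.16e-04) and Ifnar1 (0.40, SE 0.13, adjusted p = 0.0308) higher, and Ifngr1 (-0.47, SE 0.16, adjusted p = 0.0372) lower in aSyn-only cells. Among 9 kinases and adaptors 0 were called without and 4 with the block, all higher, with the smallest p for Ikbke, a kinase of IRF3 and IRF7 (1.34, SE 0.22, adjusted p = 4.22e-05), Myd88, the Toll-like receptor adaptor (0.49, SE 0.16, adjusted p = 0.0291), and Jak2 (0.68, SE 0.23, adjusted p = 0.0346). Of 13 inhibitors 0 were called without and 5 with the block, 4 higher and 1 lower. Socs3 and Cish (2.79, SE 0.88, adjusted p = 0.0222) rose, and Pias1 (-0.35, SE 0.11, adjusted p = 0.0191) fell. Of 11 tested other IRF and STAT genes 0 were called without the block and Stat5b alone with it (-0.42, SE 0.14, adjusted p = 0.031). Next by p were Batf, a partner of IRF4 and IRF8 (1.64, SE 0.64, adjusted p = 0.0639 with the block), and Stat6 (-0.19, SE 0.087, adjusted p = 0.123 with the block). The blocked counts of aSyn-only against untreated cells in these lists stand beside 19.2% called among all genes.

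All 9 genes were located in the GENCODE annotation of GRCm38, and the exons of some overlap those of a neighbour on the other strand. Irf7 (chromosome 7, 141262706 to 141266481, - strand) shares 45 exonic bases at its 3′ end with Phrf1, and Irf5 (chromosome 6, 29526625 to 29541871, + strand) shares 411 with Tnpo3. Stat3 (chromosome 11, 100885098 to 100939540, - strand) shares 72 with Stat5a. Whether the counting used strand is not given in the sources used here, so reads in those stretches cannot be assigned with certainty. Between donors and acceptors at 30 min the log2 fold change without the block was -0.01 for Phrf1, -0.15 for Tnpo3, 0.33 for Stat5a, 0.09 for Rnf31 and -0.10 for Bcl2l12. Between aSyn-only and untreated cells it was -0.06, 0.08, 0.21, -0.15 and -0.67, and Bcl2l12 was called with the block (-0.66, SE 0.24, adjusted p = 0.0453). The part of shared reads in the members' values was not tested. Irf9 (chromosome 14, 55603571 to 55610030, + strand) shares 123 exonic bases with Rnf31 on the same strand. Irf3 (chromosome 7, 44997648 to 45002848, + strand) shares 88 with Bcl2l12 and Irf1 (chromosome 11, 53770014 to 53778374, + strand) 135 with Gm17334, both on the other strand and away from the 3′ end. Irf2 (chromosome 8, 46739732 to 46847458), Irf8 (chromosome 8, 120736358 to 120756694) and Stat2 (chromosome 10, 128270559 to 128292849), all on the + strand, share none.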

How the data were processed

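QuantSeq 3′ libraries were read as 1x50 bp on a HiSeq2500, per the labels' protocols. STAR, Partek, DESeq2 and the build mm10 are named in the submitters' processing notes; versions, annotation and counting settings are not given in the sources used here. The authors deposited raw counts per gene symbol and a normalized signal, per the file headers. The deposited signal was checked to equal count over size factor for 100% of values and was not used further. Same-numbered untreated pairs differed by more than sampling noise (chi-square per degree of freedom 12.1 and 10.3) but less than other untreated pairs (24.2 to 288), and were summed.

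Counts were tested with edgeR 4.0.16 in R 4.3.3: TMM, filterByExpr with a minimum count of 10, quasi-likelihood F tests in a group-means fit of all 14 groups, and Benjamini-Hochberg adjustment over 13169 genes. Called means an adjusted p under 0.05, and 3 joint tests of time were added to 19 pairwise ones. CPM used TMM library sizes, with a prior count of 2 in log2 values. Standard errors were derived from the fold change and its F statistic. The pairing comes from the replicate numbers in the titles: same-numbered samples deviated together across genes (mean correlation 0.339 to 0.593, lowest single pair 0.199). The biological coefficient of variation was 38.1% without and 21% with the block. The labels name no batch; library codes of experiment 4 have a range of their own, so values without it are given. In simulated aSyn-only against untreated data on 13169 genes, 43% of 2-fold and 73% of 4-fold changes were recovered, and 4.13% of calls were false. DESeq2 1.42.0 was an alternative.

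Genes and lists were chosen with earlier results of these data known. All 9 members are named, with the 3 genes most correlated with each and, from each pathway list, genes among the 3 with the smallest p in a comparison, not all of which are printed. Ifna2, Ifna4, Ifng, Mb21d1 and Sting1 were not analysed here, and Stat4, Ciita and Osmr were below the filter.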

Additional observations from a re-analysis of the deposited data

Results flagged for a closer look

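In 6 of 90 tests of a single sample against its group, a sample stood apart by its gap to the nearest other, where chance flags about 1 in 20. The untreated sample of experiment 2 stood apart for Irf7 (1186 CPM, next 139 CPM), Stat2 (385 CPM, next 101 CPM) and Irf5 (303 CPM, next 179 CPM). Donors of experiment 2 stood apart for Irf5 at 15 min (320.5 CPM, next 242.7 CPM) and for Stat2 at 30 min (141 CPM, next 89.1 CPM). Acceptors of experiment 4 at 150 min stood apart for Stat3 (448 CPM, next 160.1 CPM).

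In 2 of 54 member-by-time pairs, donors against aSyn-only cells and acceptors against untreated cells went opposite ways in every sample, and the difference was not tested. Both were at 0 min: Irf1, with a median log2 difference of 0.0782 in donors and -0.604 in acceptors, and Irf9, with 0.144 in donors and -0.117 in acceptors. Only at 0 min do both sides have 3 samples, so the same sign in every sample arises more easily by chance there. How many of all genes met this rule was not counted.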

How the results depend on the processing

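Without the block the number of members called was 0 in all 22 comparisons under DESeq2, RLE scaling, no filter, untreated libraries kept apart and each experiment left out, and 0 in aSyn-only against untreated cells in a fit of those groups alone, the comparison for which it was run, except that Irf5 was called in aSyn-only against untreated cells without experiment 2 (0 to 1 over the leave-outs). With the replicate block, 1 member was called in aSyn-only against untreated cells, 1 in acceptors against untreated cells at each of 15, 30 and 60 min, 2 in donors against acceptors at 30 min, and 1 each at 60 and 150 min; the block changed no other member count. Leaving experiments out of the blocked fit was added after seeing the data. It gave 0 to 2 members for aSyn-only against untreated cells (10.5% to 16% of all genes). For acceptors against untreated cells it gave 0 to 1 at 0, 60 and 150 min (0% to 2.86%, 0.858% to 2.97% and 1.81% to 3.17%) and 0 to 2 at 15 and 30 min (0.349% to 1.91% and 0.182% to 4.53%). For donors against acceptors it gave 2 to 4 at 30 min (5.47% to 8.52%) and 0 to 1 at 0, 15, 60 and 150 min (1.18% to 11%, 4.43% to 6.61%, 2.52% to 4.47% and 1.9% to 3.23%). The cause of these changes was not tested. No called value reversed. In 718 of 720 recomputed group means the CPM moved by less than the spread between replicates when library totals replaced TMM sizes or samples were left out; Irf5 in donors at 60 min moved to 230.5 CPM and Stat3 in acceptors at 0 min to 159 CPM.

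Counts over all genes moved more: 157 of 287 differed by over 1.5 times from the fit without the block. In aSyn-only against untreated cells 329 genes were called, against 2524 with the block, 592 with DESeq2, 618 with untreated libraries apart, 37 with these groups alone and 73 to 301 with an experiment left out. In donors against acceptors the counts without the block, with it and with DESeq2 were 33, 564 and 79 at 0 min, 117, 1260 and 195 at 15 min, 106, 1416 and 209 at 30 min, 55, 882 and 117 at 60 min, 22, 684 and 78 at 150 min, and 4, 182 and 20 at 300 min; leaving out an experiment gave from 2 up to 7.3 times the 33 genes at 0 min (the highest without experiment 4), and 36 to 152, 19 to 179, 10 to 80, 8 to 29 and 2 to 7 at the later times. In acceptors against untreated cells they were 0, 131 and 1 at 0 min, 0, 296 and 22 at 15 min, 15, 474 and 34 at 30 min, 9, 527 and 65 at 60 min, 18, 630 and 91 at 150 min, and 0, 82 and 4 at 300 min; leaving out an experiment gave 0 to 2, 0 to 4, 0 to 29, 0 to 14, 1 to 17 and 0, and untreated libraries kept apart gave 0, 15, 28, 58, 92 and 6. Without a filter on low counts acceptors at 150 min had 10. In donors against aSyn-only cells they were 4, 40 and 7 at 300 min (1 to 3 with an experiment left out), and 1 by DESeq2 at 0 min. For the joint tests they were 8, 76 and 25 in donors, 1, 18 and 34 in acceptors, and 0, 6 and 4 for their difference (1 to 26, 0 to 3 and 0 with an experiment left out). With at most 4 experiments, 43% of simulated 2-fold changes between aSyn-only and untreated cells were recovered, and the rest were missed. Smaller changes were not simulated, so how often they can be detected, without or with the block, was not tested.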
